A study of Homo sapiens with 4 samples.

Results

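The 10 human Frizzled receptors, FZD1 to FZD10, were examined in HEK293 cells. They were found through the RefSeq accession that opens each probe name, which was matched to the genes FZD1 to FZD10. All 10 genes had a target on the array, each with 3 probes, so that 30 of 71998 probes and 10 of 17214 named genes belong to the family. HEK293 is an immortal line of embryonic kidney origin that carries adenovirus sequence, and cloned receptors are commonly expressed in it. The 4 arrays hold 4 biological replicates of 1 untreated group, each from its own culture plate and RNA extraction. All 4 came from the same line, bought from a cell collection and grown in serum-containing medium, and the labels call the cell type normal. No other cell line, treatment or time point was examined here.

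Frizzled proteins sit in the cell membrane and bind Wnt proteins, lipid-bearing secreted signals, through a cysteine-rich domain outside the cell. Inside the cell they recruit Dishevelled. With the co-receptors LRP5 and LRP6 they stabilise beta-catenin, the product of CTNNB1, and with other partners they act in planar cell polarity, the alignment of cells within a sheet. By sequence the family is usually split into FZD1, FZD2 and FZD7, FZD3 and FZD6, FZD5 and FZD8, and FZD4, FZD9 and FZD10. They form most of class F of the G protein-coupled receptors, beside Smoothened.

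Probe sequences were not used here, so whether probes of FZD1, FZD2 and FZD7, which are close relatives, also bind each other's message was not tested. To show the genes themselves, the 250 bases before the transcription start are printed for 5 members from RefSeq (build GRCh38.p14). FZD2, FZD3, FZD6, FZD7 and FZD10 are named only. FZD1 and FZD4 stand for members whose message was detected, and FZD5, FZD8 and FZD9 for members whose message was not. Capitals mark motif matches on either strand. The first motif searched was TATAAA, the core of many basal promoters, and the second was CCAAT, which binds the factor NF-Y. The third was GGGCGG, the box bound by Sp factors, called GC box here. The last was CTTTGA, the core recognised by the TCF/LEF factors that work with beta-catenin.
FZD1, chr7:91264183-91264432, plus strand: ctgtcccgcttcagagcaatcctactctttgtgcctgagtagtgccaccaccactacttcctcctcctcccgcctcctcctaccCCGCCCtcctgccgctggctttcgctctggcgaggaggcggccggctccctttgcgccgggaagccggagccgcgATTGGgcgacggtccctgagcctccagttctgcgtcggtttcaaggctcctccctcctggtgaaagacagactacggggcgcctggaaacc
FZD4, chr11:86955396-86955645, minus strand: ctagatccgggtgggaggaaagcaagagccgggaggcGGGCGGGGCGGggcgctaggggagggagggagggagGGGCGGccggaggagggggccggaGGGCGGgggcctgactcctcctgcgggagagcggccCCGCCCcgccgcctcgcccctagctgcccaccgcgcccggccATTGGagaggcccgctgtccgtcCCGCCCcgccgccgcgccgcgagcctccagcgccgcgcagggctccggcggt
FZD5, chr2:207769907-207770156, minus strand: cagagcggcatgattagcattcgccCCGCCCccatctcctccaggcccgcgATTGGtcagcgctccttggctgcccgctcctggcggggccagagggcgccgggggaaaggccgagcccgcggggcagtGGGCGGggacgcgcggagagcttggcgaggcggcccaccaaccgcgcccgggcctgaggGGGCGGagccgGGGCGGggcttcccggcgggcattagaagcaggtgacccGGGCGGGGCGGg
FZD8, chr10:35642297-35642546, minus strand: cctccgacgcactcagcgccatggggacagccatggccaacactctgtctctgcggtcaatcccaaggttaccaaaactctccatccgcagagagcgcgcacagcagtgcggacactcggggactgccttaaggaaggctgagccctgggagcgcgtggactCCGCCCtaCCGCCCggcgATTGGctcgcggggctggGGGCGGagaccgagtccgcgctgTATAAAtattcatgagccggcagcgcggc
FZD9, chr7:73433528-73433777, plus strand: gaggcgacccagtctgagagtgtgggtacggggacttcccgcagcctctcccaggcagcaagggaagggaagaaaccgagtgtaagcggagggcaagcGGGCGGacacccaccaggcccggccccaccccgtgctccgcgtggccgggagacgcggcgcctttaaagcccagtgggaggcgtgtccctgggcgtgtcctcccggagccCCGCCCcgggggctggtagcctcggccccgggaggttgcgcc

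All 5 windows were rich in G and C, at 65.2% in FZD1, 80.8% in FZD4, 76.8% in FZD5, 65.2% in FZD8 and 72.4% in FZD9, against a median of 58.0% over 35116 promoters of the same length. A GC box was found in each of the 5, against 42.6% of all promoters. It occurred 6 times in FZD4 and 6 times in FZD5, counting overlapping matches, and of these the message of FZD4 was detected and that of FZD5 was not. The CCAAT motif was found once in FZD1, FZD4, FZD5 and FZD8 and not in FZD9, against 32.0% of all promoters. Only FZD8 among the 5 held the TATAAA motif, which 10.7% of all promoters held. The TCF/LEF core was in none of the 5 windows and in 11.2% of all promoters. Matches of different motifs did not overlap in these windows, and a match of letters is a description of the window.

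The study measured expression against genes of seminal proteins, which kidney-derived cells were held unlikely to use. On each array the mean of these control genes plus 2 SD was the baseline, and a gene was called detected where its distance to the baseline, averaged over the arrays, was above 0. This baseline was 9.47, 9.94, 10.69 and 10.32 log2 units on replicates 1 to 4. Median probe values of the 4 arrays were between 9.39 and 9.40, while the first quartile was 6.77 on replicates 1 and 2 and 7.37 on replicates 3 and 4. The arrays also differed in NEFM, a neurofilament gene, which stood at 13.57 and 13.09 log2 units on replicates 1 and 3 and at 8.32 and 8.08 on replicates 2 and 4. Of the 9 neuronal-type and kidney-type genes linked to HEK293 cells, 7 were detected, against 52.7% of all genes. Limma called 5 of the 9 above the baseline and 2 below, against 45.9% and 41.0% of all genes. NEFL, INA and VIM were above the baseline on all 4 arrays. NEFM and EYA1 were detected but not called, at 0.66 and 0.11 log2 units. PAX2 and LHX1, factors of the early kidney, were below the baseline on all 4. Among markers of other cells, 0 of 4 blood genes, 0 of 3 hepatocyte genes and 1 of 4 endothelial genes were detected, the last being KDR at 0.30 ± 0.85 log2 units (SD, n = 4, limma adjusted p = 0.393).

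Message was detected for 5 of the 10 Frizzled genes. Those above the baseline were FZD7, FZD6, FZD1, FZD4 and FZD3, and those below it were FZD2, FZD8, FZD9, FZD5 and FZD10. By the same rule 52.7% of all 17214 genes were detected, and 5 of 10 is near this share. FZD3 and FZD6 were both detected, as were 2 of the 3 genes FZD1, FZD2 and FZD7 and 1 of the 3 genes FZD4, FZD9 and FZD10. Of FZD5 and FZD8, 0 of 2 were detected. The limma test of the distances, one-sided and adjusted over all genes, placed the same 5 genes above the baseline and the other 5 below it, against 45.9% and 41.0% of all genes. On 4 of 4 arrays 4 members were above (45.0% of all genes) and 5 were below (39.8%).

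**Figure D1:**
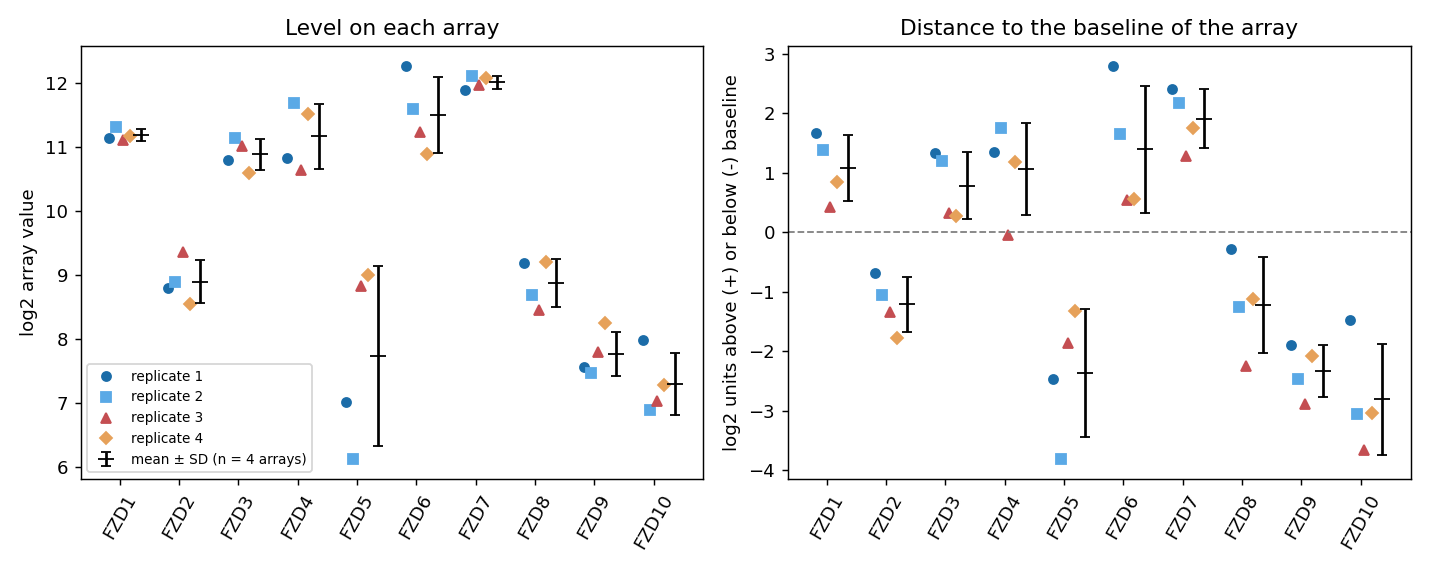
The left panel plots the log2 array value of each Frizzled gene on each of the 4 HEK293 arrays, and the right panel the same values after the array's baseline was subtracted; marks are arrays and bars are the mean ± SD over 4 arrays. FZD1 and FZD7 lie close together on the left (SD of 0.089 and 0.10) and spread on the right (0.55 and 0.50), FZD4 has a single array just below 0, and FZD2, FZD5, FZD8, FZD9 and FZD10 lie below 0 on every array.

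FZD7, a receptor studied in stem cells and intestinal crypts, had the largest mean distance of the family when the 3 probes were averaged on the linear scale. The study averaged them too, on a scale that is not given in the sources used here, and with log2 averaging FZD7 stood at 1.30, FZD1 at 1.37 and FZD6 at 1.61. The 4 arrays gave levels of 11.89, 12.10, 11.98 and 12.08 log2 units, in the order of replicates 1 to 4. All 4 values were above the baseline of their array, and the mean distance was 1.91 ± 0.50 (SD, n = 4, limma adjusted p = 8.98e-08). Distances of different genes come from probes of different affinity, so their order is no order of message amounts.

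FZD6, which acts in planar polarity of skin and hair, varied more between arrays. Levels of 12.27, 11.60, 11.24 and 10.88 log2 units were measured on replicates 1 to 4. The first of these was the highest and the last the lowest, and all 4 were above the baseline, at a mean distance of 1.39 ± 1.07 (SD, n = 4, limma adjusted p = 9.64e-05). On replicates 3 and 4 alone the distance was 0.55 (limma adjusted p = 0.133).

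FZD1, a close relative of FZD7, had the smallest SD of the level among the members, though not of the distance. It stood at 11.14, 11.31, 11.12 and 11.17 log2 units on replicates 1 to 4. The 4 values lay within the same narrow band, above the baseline on each array, and the mean distance was 1.08 ± 0.55 (SD, n = 4, limma adjusted p = 0.00252). The test did not pass on replicates 3 and 4 alone, at 0.64 (limma adjusted p = 0.0967), or on replicates 1 and 3 alone, at 1.05 (limma adjusted p = 0.115).

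FZD4 binds Wnt proteins and also Norrin, a secreted protein needed for blood vessels of the retina. Replicates 1 and 3 gave levels of 10.82 and 10.64 log2 units, and replicates 2 and 4 gave 11.69 and 11.51. The second pair was above the first in each of the 3 probes as well. On replicate 3 the gene lay 0.05 log2 units below the baseline, where the plot of distances shows a value of -0.05. The mean distance was 1.06 ± 0.78 (SD, n = 4, limma adjusted p = 0.00296), and without replicate 2 it was 0.83 with an adjusted p of 0.0653 in limma. On replicates 3 and 4 alone it was 0.57 and on replicates 1 and 3 alone 0.65 (limma adjusted p = 0.189 and 0.32). NEFM was low on the arrays where FZD4 was high, and its part in these values was not tested. In the gene table PRSS23, a protease gene, overlaps FZD4, and the labelled double-stranded cDNA does not keep the strand. PRSS23 stood at 10.49, 9.34, 10.19 and 7.76 log2 units on replicates 1 to 4, and its part in the values of FZD4 was not tested.

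FZD3, known for guiding axons, lay nearest to the baseline among the detected members. Its levels were 10.80, 11.14, 11.01 and 10.59 log2 units on replicates 1 to 4. Each of these was above the baseline, by 0.27 on replicate 4 and by 1.33 on replicate 1, and the mean distance was 0.78 ± 0.56 (SD, n = 4, limma adjusted p = 0.0293). The call was lost without replicate 1, at 0.60 (limma adjusted p = 0.0916), and without replicate 2, at 0.64 (limma adjusted p = 0.157). It was also lost with the array pairs 1 and 2, and 3 and 4, as a random block (limma adjusted p = 0.078), with a robust fit that let the variance follow intensity (0.0548) and with the median of the probes (0.0501). On replicates 3 and 4 alone the distance was 0.29 and on replicates 1 and 3 alone 0.82, and neither was called (limma adjusted p = 0.412 and 0.214).

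Below the baseline, FZD2 and FZD8 stood nearest to it. FZD2, a receptor tied to skeletal growth and a relative of FZD1 and FZD7, had levels of 8.79, 8.89, 9.35 and 8.55 log2 units on replicates 1 to 4. FZD8, a relative of FZD5, had levels of 9.18, 8.69, 8.45 and 9.20. Both were below the baseline on every array, at -1.21 ± 0.46 (SD, n = 4, limma adjusted p = 0.000777) and -1.22 ± 0.80 (SD, n = 4, limma adjusted p = 0.00067). Both were above the mean of the control genes, which was 7.47 ± 0.36 log2 units (SD, n = 4). Both also turned to the detected side when the controls were changed. Without the control genes SPATA5 and SPATA13, the highest of the set, FZD2 stood at 1.12 and FZD8 at 1.10, with limma adjusted p of 0.000134 and 0.000223. A value below the baseline does not show that a message was absent.

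FZD5, studied in the eye and in Paneth cells of the gut, was the only member whose level spread more than its distance. Replicates 1 and 2 gave levels of 7.01 and 6.12 log2 units, and replicates 3 and 4 gave the higher levels of 8.83 and 8.99. Each of these pairs shared a distribution of values, as the first quartiles show. After quantile normalization of all 4 arrays together the levels were 7.28, 6.42, 8.78 and 8.95. The probes shared the difference unevenly: 1 probe gave 7.16 on replicate 1 and 7.20 on replicate 3, where another gave 7.36 and 9.87. The cause of the difference was not tested. The mean distance was -2.37 ± 1.07 (SD, n = 4, limma adjusted p = 3.25e-11).

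FZD9, expressed in brain and bone, and FZD10 were low on all arrays. FZD9 had levels of 7.57, 7.47, 7.80 and 8.25 on replicates 1 to 4 and a mean distance of -2.33 ± 0.44 (SD, n = 4, limma adjusted p = 6.17e-11). FZD10 had levels of 7.99, 6.88, 7.03 and 7.28, highest on replicate 1, and a mean distance of -2.81 ± 0.93 (SD, n = 4, limma adjusted p = 3.47e-15). Its mean level of 7.30 was under the mean of the control genes, which SPATA5 and SPATA13 raised, at 9.97 and 9.72. It was above every other control gene, of which SPATA4 was the highest at 7.25.

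The spread of a distance holds both the spread of the gene and that of the baseline, whose SD over the 4 arrays was 0.52 log2 units. In 9 of the 10 members the level spread less between arrays than the distance did, which was also the case for 72.7% of all genes. The SD of the level ran from 0.089 for FZD1 to 1.40 for FZD5, and was at most 0.59 in the 5 detected members. Over all genes the median SD of levels was 0.42 and that of distances 0.63. The limma fit gave all genes the same standard error of 0.351, so the spread of a single gene did not enter its own test.

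The single probes were then set against the same baseline. Of the 30 Frizzled probes, 9 were above it on all 4 arrays (38.3% of all probes of named genes were), 14 were below it on all 4 (43.1% of all), and 7 crossed it. FZD1 had all 3 probes above on every array, with mean values of 10.74, 11.12 and 11.57 log2 units. FZD6 had 2 such probes, at 11.71 and 11.79, while the third ran from 12.06 on replicate 1 down to 9.30 on replicate 3 and was above the baseline on 2 arrays.

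FZD7 had the widest range between probes. The brightest gave 13.13, 13.33, 13.26 and 13.40 log2 units on replicates 1 to 4. Another stayed near 10.86, its mean, and above the baseline on all 4 arrays. The dimmest ran from 8.36 to 9.71 and was above the baseline on 1 array only, and with the median of the 3 probes in place of their mean the distance of FZD7 was 0.89 rather than 1.91 (limma adjusted p = 0.0134), below the 1.73 of FZD6. FZD3 and FZD4 each had 1 probe above the baseline on all 4 arrays. The dimmest probe of FZD3 was above it on 2 arrays and that of FZD4 on 3.

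FZD2, FZD5, FZD9 and FZD10 had all 3 probes below the baseline on every array. In FZD8 a single probe crossed it, on replicate 1, where it gave 10.15 log2 units, while its dimmest probe ran from 6.19 to 7.64. In FZD5 all 3 probes were lowest on replicate 2, at 5.95, 6.20 and 6.20.

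**Figure D2:**
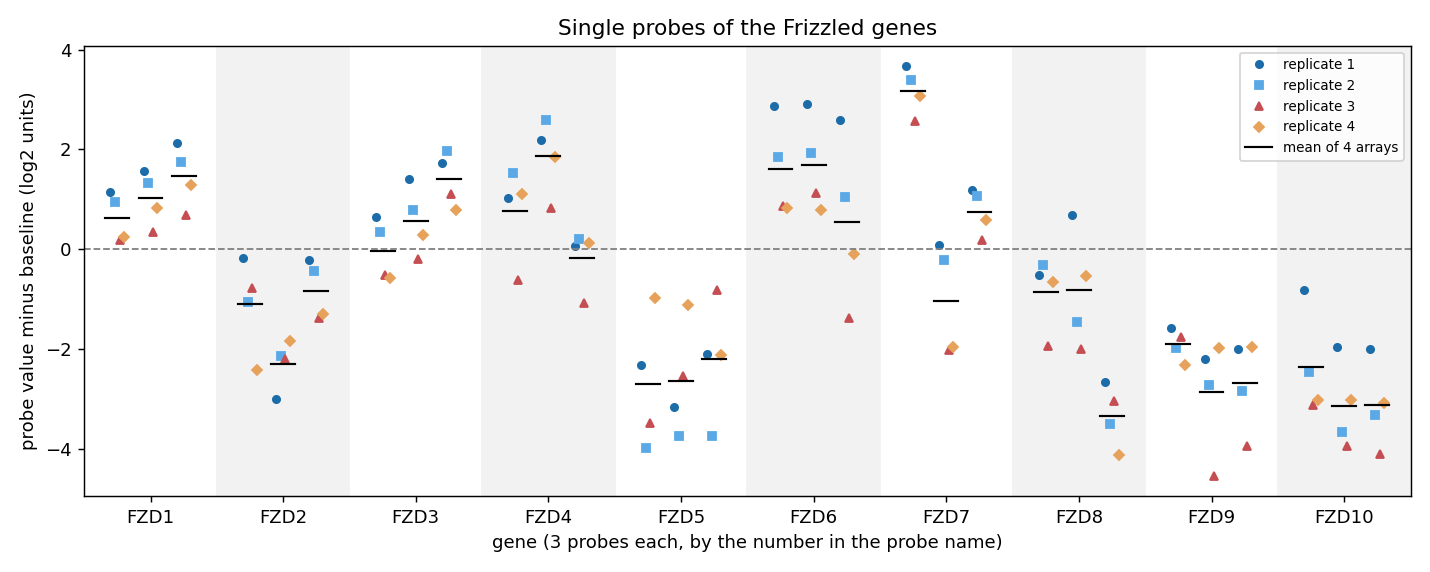
Each of the 30 Frizzled probes is plotted as its log2 value minus the baseline of the array, with 3 probes per gene ordered by the number in the probe name; marks are the 4 arrays and black lines their means. All 3 probes of FZD1 lie above 0, FZD7 spans from a mean of 3.18 for its brightest probe to -1.03 for its dimmest, and all probes of FZD2, FZD5, FZD9 and FZD10 lie below 0.

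The order of the 3 probes of a gene can be read without a baseline, since each probe keeps its own affinity from array to array. The detected and undetected groups compared here were set by the baseline on the same values. The comparison is therefore no independent support for the split. Among the 5 detected Frizzled genes the full order was the same on all 4 arrays in 4, the exception being FZD6. Among the 5 not detected it was the same in 0, although FZD10 kept the same brightest probe. Over all genes with a single target the full order was kept in 37.4% of 8236 detected genes and in 8.54% of 7514 others. FZD6 carried 2 probes of nearly equal brightness, numbered 3070 and 3082 in their names, and it was these that changed places.

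Probe names end in a number, which the sources used here do not explain. For 99.9% of the named probes it was no larger than the length of the gene in the gene table. A gene with no length in that table would have counted as passing, and the share does not show what the number means. The number ran from 2556 to 7172 in the detected Frizzled genes and from 748 to 3088 in the others, and was lowest in FZD2, whose probes were numbered 748, 1641 and 1771. The cDNA was primed from the poly(A) end, and the part of probe position in these values was not tested.

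The position of the baseline decided how many members counted as detected. A shift of the baseline moves all genes of an array together. Shares of all genes were not counted at the other baselines, so the counts below are no result about the family. With 1 SD above the controls, FZD2 and FZD8 joined the 5, at 0.11 and 0.093 log2 units (limma adjusted p = 0.587 and 0.612). With olfactory receptor genes as controls the same genes joined, at 0.87 and 0.86 (limma adjusted p = 0.00182 and 0.00302). With 3 SD only FZD7 and FZD6 stayed above 0, at 0.59 and 0.08, and the limma test called neither (adjusted p = 0.193 and 1). FZD5, FZD9 and FZD10 were below 0 under each of these baselines and without SPATA5 and SPATA13, where they stood at -0.04, -0.0056 and -0.48 and limma called none of them below (adjusted p = 1, 1 and 0.244).

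**Figure D3:**
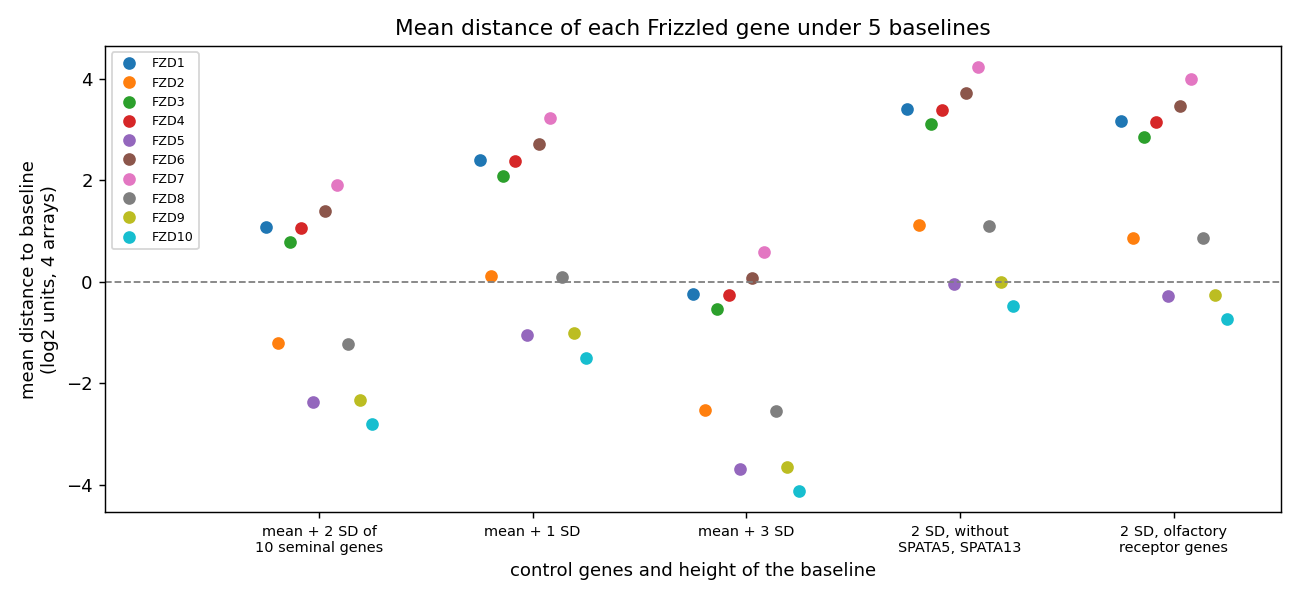
The mean distance of each Frizzled gene over the 4 arrays, in log2 units, is plotted for the study's baseline and for 4 other choices of control genes or height; colours are genes and the dashed line is the baseline. A change of baseline moves all members together: FZD7 stands at 0.59 with 3 SD and at 4.23 without SPATA5 and SPATA13, and FZD10 stays below 0 throughout.

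The genes that act with the receptors were then set against the same baseline. Of 19 Wnt ligand genes 3 were detected, and the limma test called 1 above and 14 below the baseline, where 52.7% of all genes were detected, 45.9% called above and 41.0% called below. The ligand called above was WNT5B, often assigned to signalling without beta-catenin, at 11.40, 11.52, 11.61 and 11.67 log2 units on replicates 1 to 4 and a distance of 1.45 ± 0.43 (SD, n = 4). WNT5A and WNT10B, named after their values were seen, were the other ligands detected, at 0.52 ± 1.16 (SD, n = 4, limma adjusted p = 0.145) and 0.10 ± 0.80 (SD, n = 4, limma adjusted p = 0.744). The lowest distances were those of WNT8A, WNT2 and WNT6, at -3.55, -3.27 and -3.22. The median distance of the ligands was -2.32, against 0.26 over all genes.

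A list of 4 genes for Wnt processing and other ligands gave 2 called above the baseline and 2 below, against 45.9% and 41.0% of all genes. Those above were PORCN and WLS, which make Wnt proteins ready for release. Those below were NOTUM, at -2.96 ± 0.39 (SD, n = 4), and NDP. PORCN, which adds the lipid, stood at 1.78 ± 0.56 and WLS, which carries Wnt proteins to the surface, at 2.65 ± 1.03 (SD, n = 4 for each). NDP, the gene of the FZD4 ligand Norrin, stood at -3.53 ± 0.41 (SD, n = 4), while TSPAN12, a partner of FZD4 in Norrin signalling, stood at 1.71 ± 0.85 (SD, n = 4), so that of this trio the receptor and its partner were called above the baseline and the ligand below it.

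Co-receptors and partners were detected in 8 of 11 cases, and limma called 6 of the 11 above and 1 below the baseline. The share called above is near the 45.9% of all genes, and 41.0% of all genes were called below. LRP6 stood at 3.63 ± 0.25 and LRP5 at 1.74 ± 0.82 (SD, n = 4 for each). The receptor kinase relatives PTK7, ROR1 and RYK, which take part in Wnt signalling without LRP5 or LRP6, stood at 3.33 ± 0.45, 2.91 ± 0.87 and 2.30 ± 0.85 (SD, n = 4 for each). ROR2 was not called, at 0.44 ± 0.51 (SD, n = 4, limma adjusted p = 0.216), and MUSK, the kinase of the nerve-muscle synapse, was called below.

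Secreted antagonists gave 2 of 10 detected (52.7% of all genes), with 1 called above (45.9% of all) and 7 below (41.0% of all). SFRP1, a soluble protein with a Frizzled-type cysteine-rich domain, stood at 1.29 ± 0.73 (SD, n = 4). FRZB, another of this kind, had levels of 11.16 and 11.47 on replicates 1 and 3 and of 9.94 and 9.81 on replicates 2 and 4, and its distance of 0.49 ± 0.96 (SD, n = 4, limma adjusted p = 0.169) was not called. SFRP4 had the lowest distance of the list, at -3.59. Among the 13 other genes with such a domain, some of which are also in the lists above, 6 were detected, with 4 called above and 6 below, to be read against the same shares of all genes. Smoothened (SMO), the class F relative in Hedgehog signalling, stood at 2.60 ± 0.61 (SD, n = 4).

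Frizzled receptors are removed from the surface by the ubiquitin ligases RNF43 and ZNRF3, which R-spondins hold back through LGR receptors. The list also held KREMEN1 and KREMEN2. Of its 10 matched genes 3 were detected and called above, against 52.7% and 45.9% of all genes, and 5 were called below, against 41.0%. The 3 above were LGR5 at 2.71 ± 0.68, LGR4 at 1.36 ± 0.95 and RNF43 at 1.00 ± 0.88 (SD, n = 4 for each). RNF43 lay below the baseline on replicate 4, at a distance of -0.21. The R-spondin genes RSPO1, RSPO2 and RSPO3 were called below, as were LGR6 and KREMEN2. RSPO4 was not called, at -0.60 ± 0.89 (SD, n = 4), and neither was KREMEN1. ZNRF3 was not matched.

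Of 14 genes from Dishevelled to the TCF/LEF factors 13 were detected, and limma called each of these 13 above, against 52.7% and 45.9% of all genes. DVL3 stood at 3.85 ± 0.62, DVL2 at 3.54 ± 0.40 and DVL1 at 1.43 ± 0.75 (SD, n = 4 for each). CTNNB1 stood at 4.93 ± 0.52 (SD, n = 4). The gene below the baseline was APC, a part of the complex that degrades beta-catenin, at -1.03 ± 0.72 (SD, n = 4, limma adjusted p = 0.00427). The median distance of this list was 3.65 log2 units.

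Planar polarity genes were detected in 5 of 7 cases (52.7% of all genes), and the same 5 were called above (45.9% of all). Among them were VANGL2 at 3.78 ± 0.61, PRICKLE1 at 2.16 ± 0.63 and CELSR1 at 1.88 ± 0.99 (SD, n = 4 for each). The other 2, CELSR3 and PRICKLE2, were called below (41.0% of all). Of 12 matched genes that often respond to beta-catenin 7 were called above and 4 below (45.9% and 41.0% of all genes). Among the former LGR5, RNF43, TCF7 and LEF1, and among the latter DKK1 and NOTUM, were also members of earlier lists. AXIN2 stood at 1.33 ± 0.76 and CCND1 at 3.48 ± 0.79 (SD, n = 4 for each), and SP5, NOTUM and DKK1 at -3.44, -2.96 and -2.86. The 81 matched genes of the pathway lists, from ligands to target genes and without the Frizzled genes and the other cysteine-rich domain proteins, gave 34 called above and 34 called below, with 48.1% detected, against 52.7% over all genes.

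**Figure D4:**
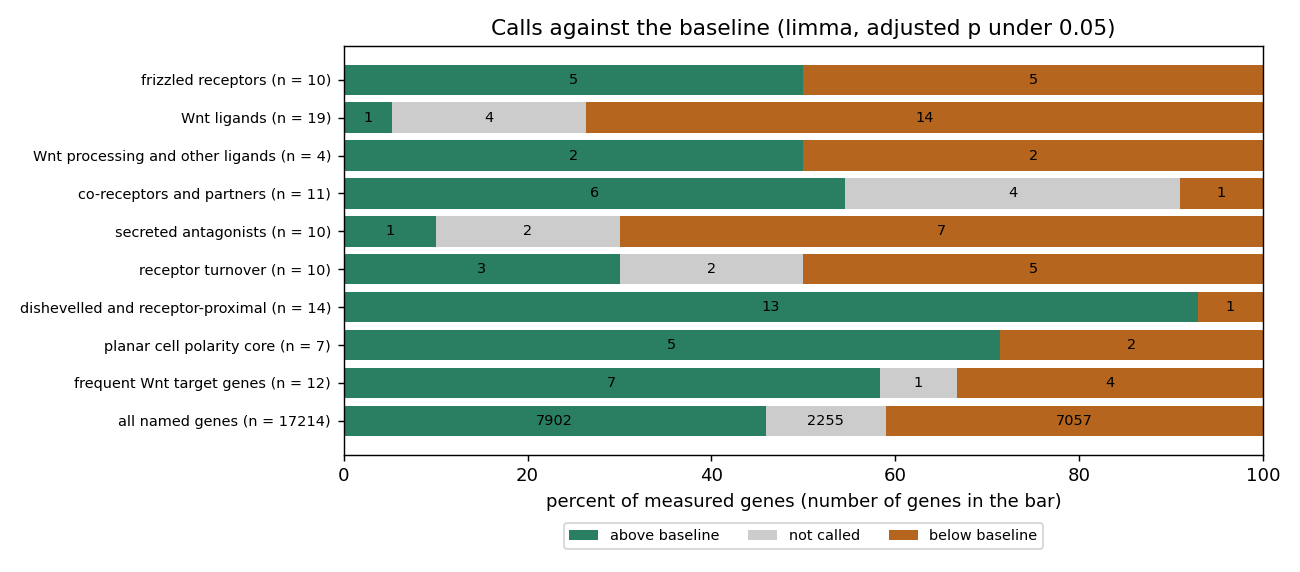
Bars show the percent of measured genes in each list that limma called above the baseline, did not call, or called below it at an adjusted p under 0.05, with the number of genes written in each part and all named genes at the bottom. The Frizzled genes split 5 to 5, 14 of 19 Wnt ligands lie below, and 13 of 14 genes from Dishevelled to the TCF/LEF factors lie above.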

How the data were processed

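RNA of 4 untreated HEK293 cultures was reverse-transcribed from the poly(A) end, and the double-stranded product was labelled with Cy3 and hybridised to NimbleGen arrays carrying 3 probes for each target. The values deposited by the authors are on a log2 scale, with a single value for each probe on each array. RMA is named in the submitters' processing notes, with no role or settings. When the values of each array were sorted, replicates 1 and 2 matched to within 0.01 at 99.97% of ranks, replicates 3 and 4 at 99.99%, and other pairs at 1.25% or less, which is the form that normalization within pairs would give. Signal over background of single spots and slide positions are not given in the sources used here.

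Gene names and overlaps came from a RefSeq table (GRCh38.p14), matched through the accession with its version removed. Of 24000 targets 19122 had 1 gene, giving 17214 genes. Probes of a target were averaged on the linear scale and returned to log2, and targets of a gene were averaged. Of the 11 control genes 10 were matched, SPATA5 under its current name AFG2A. PYY2 was not. Distances to the baseline were tested against 0 with limma 3.58 in R 4.3, one-sided in each direction, with Benjamini-Hochberg adjustment at 0.05 over all genes, and the test was tried on simulated data. The error of the baseline itself was not modelled, and a shift of the baseline moves all genes of an array together. An exact sign-flip test was not used, since its smallest one-sided p with 4 arrays is 0.0625. The number of arrays limits the precision.

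Gene lists were written from textbook roles. The members and lists were chosen with earlier results of these data known. Genes open to naming were the Frizzled and control genes, members of lists of 11 or fewer genes, and in longer lists the called genes and the 3 with the lowest mean distance. Of these the text names examples, picked with their values known, and it says where a gene lies outside the rule. Alternatives were other probe summaries, baselines and control genes, quantile normalization over 4 arrays, each replicate left out, a trend and robust prior, the array pairs as a random block and a filter on dim genes. Single pairs of arrays were added after the data had been examined. Motifs were searched with Python 3.11.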

Additional observations from a re-analysis of the deposited data

How the results depend on the processing

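The split of 5 detected and 5 undetected Frizzled genes held under each replicate left out, each probe summary, quantile normalization over 4 arrays and the 4 pairs of arrays that were run, but followed the baseline. With 3 SD the count detected was 2, with 0 called above, 0 above on every array, 1 probe above on every array and 20 of the pathway genes called above. With 3 SD the distances of FZD1, FZD3 and FZD4 turned to -0.24, -0.54 and -0.25. With 1 SD 3 genes were called below, 15 probes were above on every array, and FZD2 and FZD8 turned to 0.11 and 0.093. Without SPATA5 and SPATA13 0 were called below, 7 were above on every array, as were 19 probes, 52 pathway genes were called above, and FZD2 and FZD8 turned to 1.12 and 1.10. With olfactory controls 1 was called below, 7 were above on every array, as were 18 probes, and FZD2 and FZD8 turned to 0.87 and 0.86. These settings shift the baseline for all genes, and shares of all genes were not counted under them. The median standard error of the limma fit differed as well. It was 0.351 with the study's baseline, 0.382 with 3 SD, 0.325 with 1 SD, 0.273 without SPATA5 and SPATA13 and 0.263 with olfactory controls.

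Without each replicate in turn 3 to 5 genes were called above (3 without replicate 2, when FZD3 and FZD4 were lost), 5 were called below, 5 were detected, 4 to 5 were above on every array and 9 to 12 probes were. Of the pathway genes 38 to 42 were detected and 33 to 35 called above. Of pairs chosen after the data had been examined, replicates 1 and 3 alone gave 2 called above and 3 below, 3 and 4 alone 1 called above, and 1 and 2 alone 3 called below, while replicates 2 and 4 alone gave 5 called above and 5 below. Shares of all genes were not counted with a replicate left out or with pairs alone, so these counts are no result about the family. The median standard error of the limma fit differed here too. It was 0.351 with all 4 arrays, 0.438 without replicate 2, 0.634 with replicates 1 and 3 alone and 0.325 with replicates 3 and 4 alone. With replicates 1 and 2 alone it was 0.461, and with replicates 2 and 4 alone 0.342. The cause of the differences in calls was not tested. The filter on dim genes left FZD10 out. No paired analysis was possible because there is 1 group. Over these settings 146 other values of single genes kept their direction and call, and 24 lost a call.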

Other observations

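FZD4 was not alone in separating replicates 2 and 4 from replicates 1 and 3. Of the pathway genes, named after their values were seen, MYC stood at 15.48 and 15.50 log2 units on replicates 2 and 4 and at 13.45 and 13.76 on replicates 1 and 3, and WNT5A at 11.69 and 11.02 against 10.16 and 9.63. DKK3 went the other way, at 8.28 and 7.97 on replicates 2 and 4 and at 9.71 and 9.51 on replicates 1 and 3. The labels give no difference between these cultures, and these differences were not tested.

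None of the 20 series of 4 arrays examined for a single array apart, the level and the distance of each Frizzled gene, passed Dixon's test. The highest ratio of gap to range was 0.726, for the level of FZD1 on replicate 2.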
